A study of Homo sapiens with 33 samples.

Results

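The MS2 pool was recovered from HEK293T cells through the FLAG tag of MCP, and each designed oligonucleotide was compared between the FLAG immunoprecipitate and Input. The comparison rests on 6 of the 33 libraries of the series, 3 of FLAG and 3 of Input, and on all designed oligonucleotides of the pool, called tiles here and numbered from ms2-4x:1 in the deposited table: 104 with reads and 1 without. Each tile is present with 50 barcodes, short tags that mark separate copies of the same design, and the reads of these barcodes were summed. HEK293T is an established human embryonic kidney line. The cells of both groups carried the transfected pool and the overexpressed fusion FLAG-HA-MCP, were collected at 48 hours and were fixed with 0.1% formaldehyde for 10 minutes. By label the groups differ in the precipitation: Input is RNA of the lysate, and FLAG is RNA that came down with an antibody against the tag. Cells without MCP, or a precipitation with an unrelated antibody, were not analysed here, so a general effect of precipitation and recovery with MCP cannot be told apart.

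MCP is the coat protein of the bacteriophage MS2. It binds a short hairpin of the phage RNA as a dimer, and arrays of this hairpin are widely used to tether a tagged protein to an RNA or to pull that RNA down. The sequences of the tiles and their positions were not used here and the labels do not explain the 4x in the names, so which tiles hold a hairpin is not stated here and the number of a tile is treated as a name. MCP is not in the table, which holds the tiles and no cellular RNA, so the amount of protein recovered was not measured.

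The Input libraries held 4104695 to 4880714 reads and the FLAG libraries 4530657 to 5970277. Levels are given as CPM, counts brought to a common library size after TMM scaling, a factor that centres the bulk of the tiles (1.12 to 1.17 in Input, 0.932 to 0.952 in FLAG). ms2-4x:1 had 0 reads in all libraries and was not tested. This allows a level of at most 0.502 to 0.731 CPM, taken as 3 reads of each library total. Unlike the other levels, this limit is without TMM scaling, and it covers counting error only. The other 104 were tested.

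Recovery through FLAG split the pool. The first tiles, 2 to 12, all rose, most of the tiles from 68 on fell, and those in between were mixed. The largest gain was 1.70-fold (ms2-4x:8) and the largest loss was to 0.369 of Input (ms2-4x:88). By the quasi-likelihood F test of edgeR with Benjamini-Hochberg adjustment, 55 of the 104 tiles passed an adjusted p of 0.05, or 52.9%. Of these, 22 (21.2%) were higher and 33 (31.7%) lower. No tile rose by 2-fold or more, and 20 of the tiles called lower fell by at least that. The 3 FLAG values lay wholly above or below the 3 Input values in 61 tiles (58.7%), 23 of them above (22.1%) and 38 below (36.5%). All 33 tiles called lower and 18 of the 22 called higher were among them.

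The count of higher tiles depended on the scaling and on single libraries. With library size as the only scaling the median log2 fold change moved from -0.02 to -0.30, and 8 tiles were called higher and 43 lower. Those 8 were tiles 2 to 8 and 10. Without FLAG replicate 2, 13 tiles were called higher. With tiles 2 to 9 left out of the fit, 27 of the other 96 were called higher, against 14 of them before. Of the 55 calls, 35 passed when any 1 of the 6 libraries was left out: 10 higher, which were tiles 2 to 10 and 89, and 25 lower.

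**Figure D1:**
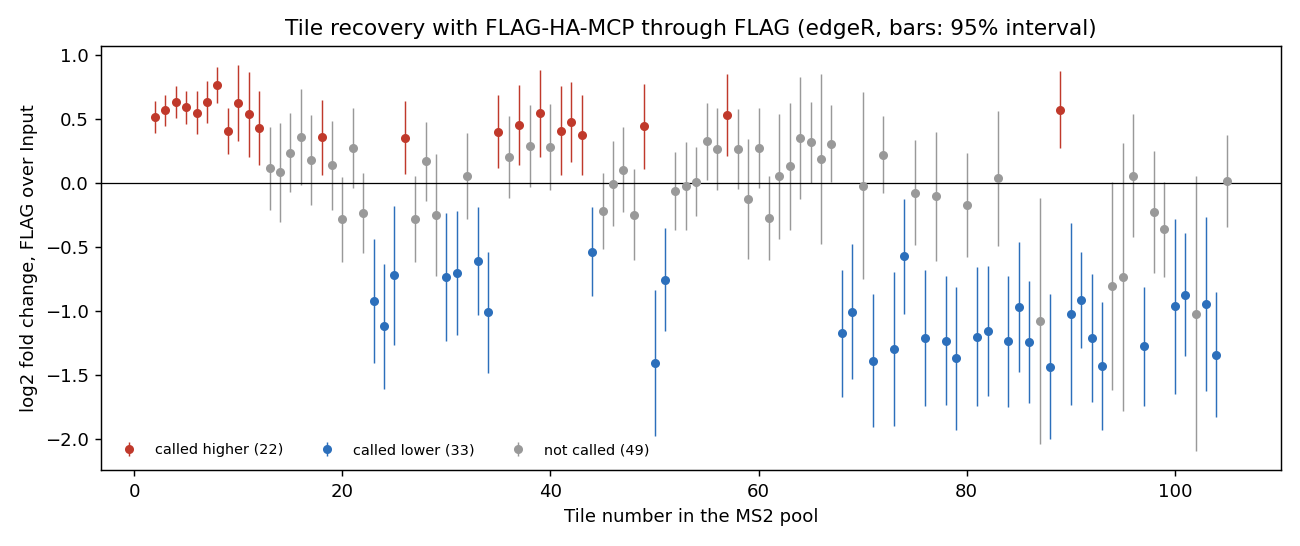
The log2 fold change of FLAG over Input (vertical axis) is plotted for each of the 104 tested tiles by tile number, with bars for the 95% interval from edgeR and colours for the 22 tiles called higher, 33 called lower and 49 not called. Tiles 2 to 12 all lie above 0, and from tile 68 on values near -1 alternate with values near 0.

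Tiles 2 to 9 held most of the reads of the pool in both groups, though only barely so in Input. They held 50.4%, 50.04% and 51.1% of the reads of Input replicates 1, 2 and 3, and 63.2%, 63.2% and 62.3% of those of FLAG replicates 1, 2 and 3. These shares use no scaling, and they were higher in every FLAG library than in every Input library (62.9% ± 0.544 against 50.5% ± 0.558, SD, n = 3 each; exact two-sided permutation p = 0.10, the smallest that 3 against 3 can give). The share of tiles 10 to 67 went from 31.7% ± 0.537 to 28.1% ± 2.07 and that of the tiles from 68 on from 17.8% ± 0.272 to 8.97% ± 1.70 (same p). The borders at 10 and 68 were taken from earlier results of these data, so these sums are a description.

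All 8 of tiles 2 to 9 were called higher, with a median log2 fold change of 0.58 against -0.02 over all tested tiles. ms2-4x:8 stood at 39564.5, 36233 and 39700 CPM in Input replicates 1 to 3 and at 66723, 67350 and 62770 CPM in FLAG. The groups were far apart and each was tight, for a log2 fold change of 0.77 ± 0.07 (SE; adjusted p = 5.08e-10 in edgeR). ms2-4x:3, one of the most abundant tiles, was at 88783, 88274 and 95076 CPM in Input and at 129899, 139298 and 134845 CPM in FLAG (0.57 ± 0.06). The smallest gain of the group was that of ms2-4x:9 (0.41 ± 0.09). The gain was spread over the barcodes: of the 400 barcodes of these tiles, 389 (97.3%) had a higher mean in FLAG.

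The run of higher tiles went on past this abundant set. Tiles 10, 11 and 12 completed 11 consecutive calls, the longest run in either direction. Their Input means were 5189, 5010 and 6811 CPM, against 21763 to 95348 CPM in tiles 2 to 9. The groups overlapped in ms2-4x:11, with FLAG replicate 1 at 5625 CPM and Input replicate 2 at 5660 CPM. It missed the threshold without FLAG replicate 3 (adjusted p = 0.0619 in edgeR) or Input replicate 1 (0.0618). Without FLAG replicate 3, ms2-4x:12 missed it too (adjusted p = 0.0760 in edgeR). ms2-4x:10 was at 5396, 4960 and 5211 CPM in Input and at 7626, 7783 and 8591 CPM in FLAG, which do not overlap (0.62 ± 0.15, adjusted p = 0.000653 in edgeR). Its fold change was as large as those of tiles 4 and 7 (0.64 each), although its Input level was far lower. Across all 104 tiles the log2 fold change and the log2 Input level had a Pearson r of 0.39 (Spearman rho 0.41), and without tiles 2 to 9 an r of 0.18 (rho 0.25, 96 tiles). These are descriptions across tiles, which share libraries and scaling.

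Tiles 10 to 67 had a median log2 fold change of 0.16, with 13 of 58 higher (22.4%), 10 lower (17.2%) and 35 not called. This median is smaller than the shift between the scalings given above, so its sign depends on the scaling. The share higher was close to that of the whole pool, and the share lower was below it. The lower ones came in short stretches: 23 to 25, 30 and 31, 33 and 34, 44, and 50 and 51. ms2-4x:50 was the lowest, at 3624, 3149 and 3212 CPM in Input and at 1843, 690.3 and 1227 CPM in FLAG. All FLAG values lay below all Input values, and FLAG replicate 2 was the lowest (-1.41 ± 0.28, adjusted p = 0.000160 in edgeR). ms2-4x:24 stood at 4285, 3950 and 4740 CPM against 2370, 1737 and 1863 CPM (-1.12 ± 0.24). Of these 10 tiles, numbers 25, 30, 31, 33 and 44 did not pass in each fit that left out 1 library. ms2-4x:33 moved from -0.61 to -0.37 without FLAG replicate 3 (adjusted p = 0.0659 in edgeR).

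Among the higher tiles of this stretch, ms2-4x:57 was at 6423, 6806 and 6888 CPM in Input and at 7252, 11070 and 10806 CPM in FLAG. FLAG replicate 1 sat just above Input and the others well above it. Its log2 fold change was 0.53 ± 0.16, and it missed the threshold when FLAG replicate 2 (adjusted p = 0.0632 in edgeR) or FLAG replicate 3 (0.0598) was left out. ms2-4x:26 (0.36 ± 0.14) and ms2-4x:49 (0.45 ± 0.16) were called higher between neighbours with values below 0, and ms2-4x:41 (0.41 ± 0.17, adjusted p = 0.0410 in edgeR) was the call nearest the threshold. ms2-4x:26 missed the threshold in 4 of the fits that left out 1 library, those without FLAG replicate 2 or an Input library. ms2-4x:49 passed only when FLAG replicate 1 was the one left out, and its value was 0.27 without FLAG replicate 3. ms2-4x:41 missed it without FLAG replicate 2 or 3 or Input replicate 2 or 3, and ms2-4x:39 moved from 0.54 to 0.35 without FLAG replicate 2 (adjusted p = 0.0906 in edgeR). The 10 tiles from 58 to 67 held no call, with values from -0.27 to 0.35.

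The tiles from 68 on had a median log2 fold change of -0.99. In this set 23 of 38 were lower (60.5%, against 31.7% of the pool), 1 was higher and 14 were not called. ms2-4x:88 was at 5247, 5733 and 5870 CPM in Input and fell to 3209, 1791 and 1226 CPM in FLAG, below Input in each library (-1.44 ± 0.28, adjusted p = 0.000148 in edgeR). ms2-4x:93 went from 5520, 5170 and 4793 CPM to 2624, 1454 and 1655 CPM (-1.43 ± 0.24). FLAG replicate 1 was the nearest to Input in both. Tiles 71 (-1.39), 79 (-1.37), 104 (-1.34), 73 (-1.30), 97 (-1.28), 86 (-1.24) and 84 (-1.24) made up, with tiles 50, 88 and 93, the 10 lowest calls.

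Some of the tiles that fell were abundant. The median Input level was 4206 CPM in lower tiles and 6594 CPM in higher ones, and whether Input level has a part in the fall was not tested. ms2-4x:90 and ms2-4x:103 were the most abundant tiles after number 9, and both were lower. ms2-4x:90 stood at 11925, 12842 and 12272 CPM in Input and at 9775, 4559 and 3881 CPM in FLAG. ms2-4x:103 stood at 12252, 10966 and 12295 CPM against 9608, 4056 and 4793 CPM. FLAG replicate 1 lay close below Input in both tiles and the other replicates far below. Without it, the log2 fold change moved from -1.02 to -1.58 in ms2-4x:90, from -0.94 to -1.45 in ms2-4x:103 and from -0.57 to -0.87 in ms2-4x:74. ms2-4x:103 missed the threshold when FLAG replicate 3 or Input replicate 3 was left out, and ms2-4x:74 in each fit without 1 library except that without FLAG replicate 1.

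The scarcest tested tiles were numbers 95, 70 and 94, and none was called. ms2-4x:95 had 1566, 2777 and 2454 reads in Input and 1628, 1608 and 564 in FLAG. ms2-4x:94 had 4243, 4417 and 4727 against 2653, 897 and 3563, with a 95% interval of the log2 fold change from -1.62 to 0.01. For ms2-4x:70 the interval ran from -0.75 to 0.71, so a moderate change of either sign was not detectable at this precision. ms2-4x:87 was nearest the threshold among tiles that did not pass (-1.08 ± 0.43, adjusted p = 0.0590 in edgeR). Its FLAG values of 3108, 941.9 and 1025 CPM all lay below Input (3806, 3543 and 3360 CPM), and without FLAG replicate 1 it passed (-1.89, adjusted p = 3.23e-07 in edgeR).

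**Figure D2:**
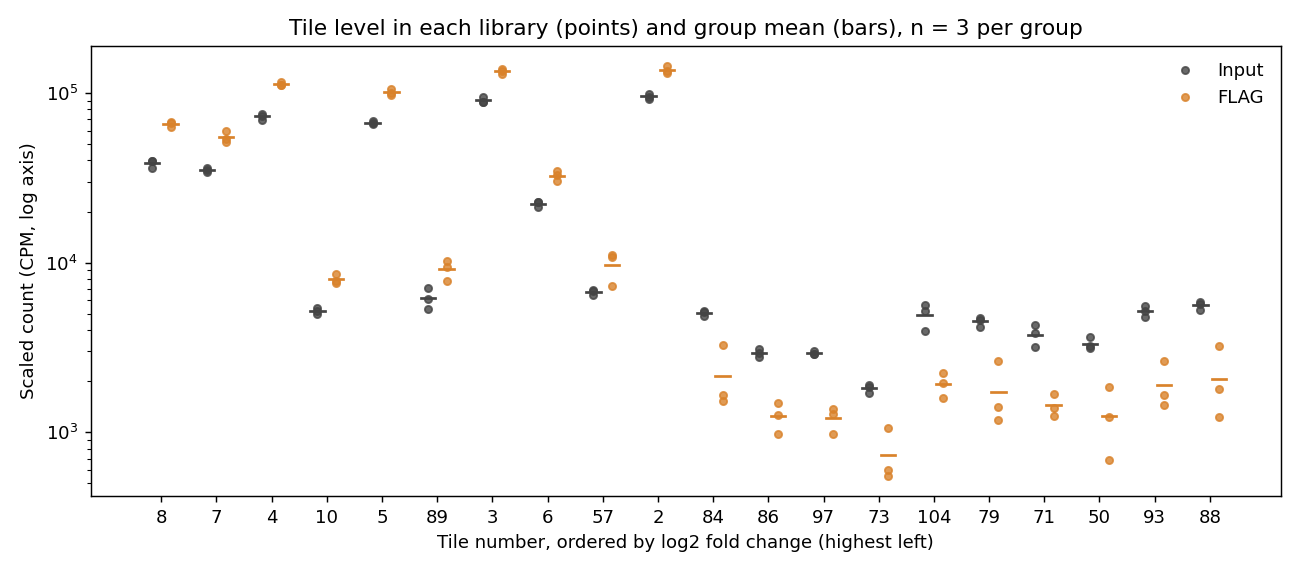
Scaled counts (CPM, log axis) of the 10 highest and 10 lowest tiles among the calls whose FLAG and Input libraries do not overlap are shown for each of 3 Input and 3 FLAG libraries as points, with bars for the group means. The separation of FLAG from Input is fixed by this choice; FLAG points spread more in the 10 lower tiles on the right.

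The change from tile to tile was abrupt in the later part of the pool. The sharpest step lay between ms2-4x:88 and ms2-4x:89, the lone higher tile from number 68 on. ms2-4x:89 stood at 6112, 5332 and 7058 CPM in Input and at 7816, 10280 and 9480 CPM in FLAG (0.58 ± 0.15, adjusted p = 0.00182 in edgeR). Within a library the ratio of 2 tiles does not depend on scaling. The log2 ratio of ms2-4x:89 to ms2-4x:88 was 0.22, -0.10 and 0.27 in the Input libraries and 1.28, 2.52 and 2.95 in the FLAG libraries. The tiles were thus about level in Input, and ms2-4x:89 was in excess in each FLAG library, by 2.12 more on the log2 scale (exact two-sided permutation p = 0.10, the smallest possible). This pair had the largest shift of 103, and such a choice favours a small p. The ratio of ms2-4x:90 to ms2-4x:89 moved the other way, by -1.72, from a mean of 1.01 ± 0.24 to -0.71 ± 0.90 (SD).

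Such steps recurred along the pool. Of 103 pairs of consecutive numbers, 20 shifted by at least 1 on the log2 scale, and in 17 of these the libraries did not overlap. Over all pairs 39 did not overlap (37.9%), and the median absolute shift was 0.31. From ms2-4x:49 to ms2-4x:50 the log2 ratio went from -0.50 ± 0.08 in Input to -2.44 ± 0.95 in FLAG (SD, n = 3 each). ms2-4x:72 lay between a pair of lower tiles: its log2 ratio to ms2-4x:71 rose from 0.45 ± 0.14 to 2.06 ± 0.30, and that of ms2-4x:73 to ms2-4x:72 went from -1.50 ± 0.15 to -3.08 ± 0.57. By itself ms2-4x:72 was not called (0.22 ± 0.15). Of the 14 uncalled tiles from number 68 on, 10 had log2 fold changes from -0.36 to 0.22. The called tiles formed 10 runs of higher tiles, 8 of them of 1 tile, and 17 runs of lower tiles, the longest of 4 (90 to 93).

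**Figure D3:**
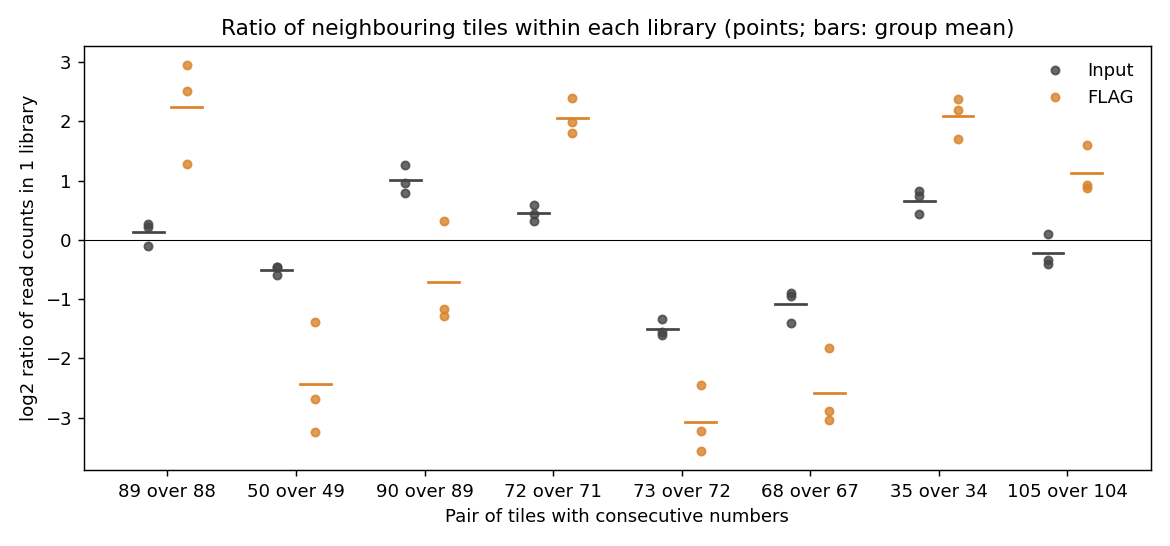
The log2 ratio of the read counts of 2 tiles with consecutive numbers is plotted for each Input and FLAG library (points) with the group means (bars), for the 8 pairs with the largest shift. In each of these pairs the FLAG points lie apart from the Input points, as in 89 over 88, at 1.28 to 2.95 in FLAG and -0.10 to 0.27 in Input. The choice by size of shift favours such a separation.

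Averages over 5 consecutive numbers gave the same outline. Picked one after another so that no tile is shared, the highest were tiles 4 to 8 (mean log2 fold change 0.64), 9 to 13 (0.42) and 39 to 43 (0.42), and the lowest were 84 to 88 (-1.19), 90 to 94 (-1.08) and 100 to 104 (-1.03). In the window from 84 to 88 the 3 FLAG libraries stood at -0.66, -1.60 and -1.61 against the mean of Input, and in that from 4 to 8 at 0.66, 0.63 and 0.62.

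The FLAG libraries lacked many barcodes that Input held. Of the 5200 barcodes of the tested tiles, 8.88%, 6.40% and 5.17% had no read in Input replicates 1, 2 and 3, and 22.0%, 25.4% and 11.6% had none in FLAG, although 2 of the 3 FLAG libraries were deeper than any Input library. All FLAG values lay above all Input values (exact two-sided permutation p = 0.10). The loss was examined in the 4101 barcodes with at least 50 reads in each Input library, called well-sampled here. Of these, 15.6%, 18.7% and 6.85% had no read in FLAG replicates 1, 2 and 3. Input is never at 0 in this set by its definition. Of barcodes with at least 50 reads in both other Input libraries, 4.64%, 2.78% and 1.97% had none in Input replicates 1, 2 and 3, below each FLAG value over all tiles, with FLAG replicate 3 the nearest. In the reverse direction, of 2713 barcodes with at least 50 reads in each FLAG library, 2.84%, 1.55% and 0.811% had none in Input replicates 1, 2 and 3.

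Barcodes were lost mostly from tiles that fell. All 33 lower tiles had more barcodes at 0 in each FLAG library than in any Input library, a pattern found in 41 of the 104 tiles (39.4%), and none of the 22 higher tiles had it. Of well-sampled barcodes, lower tiles lacked 26.7%, 39.2% and 17.4% in FLAG replicates 1, 2 and 3, and higher tiles 4.55%, 2.48% and 0.297%. Tiles 2 to 9 lacked none of their 400. These tiles had 4284 to 4988 reads in the median well-sampled barcode of each Input library, against 412 to 489 in lower tiles and 435 to 504.5 in tiles not called, where FLAG lacked 14.2%, 13.7% and 3.30%, the last of these within the range of Input just given. Lower and uncalled tiles were near in Input depth per barcode and differed in loss. Whether depth has a part in the loss was not tested. A read count and a barcode at 0 come from the same reads, so the loss is no second measurement of the fall. Loss and fall did not rank the replicates alike. In lower tiles the median log2 ratio of FLAG to Input was -0.65, -1.24 and -1.48 in replicates 1, 2 and 3. Replicate 3, with the deepest fall, lost the fewest barcodes.

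ms2-4x:88 shows the pattern at 1 tile: 0 of its 50 barcodes were at 0 in each Input library, and 14, 21 and 8 in FLAG replicates 1, 2 and 3. In ms2-4x:93, 1 barcode was at 0 in each Input library and 18, 28 and 9 in FLAG. The abundant ms2-4x:90 lost fewer, with 0 in Input and 2, 8 and 1 in FLAG. Of 1245 well-sampled barcodes in lower tiles, 498 (40.0%) had reads in all FLAG libraries, 504 lacked them in 1 library, 196 in 2 and 47 (3.78%) in all 3. Of the barcodes that were lost at all, most were lost in 1 replicate.

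Barcodes that were recovered were lower too. Over the well-sampled barcodes the 33 lower tiles had a median log2 ratio of FLAG to Input of -1.26, as a mean over replicates. Over those of them with a FLAG read in the replicate concerned the median was -0.77. This second ratio was below 0 in every replicate in 30 of the 33 tiles, and in 32 of all 104 tested tiles. In ms2-4x:90 the ratios were -1.15 and -1.07, so loss made little difference there, and in ms2-4x:93 they were -1.56 and -0.90. Leaving out barcodes with a FLAG count of 0 selects on the outcome, and the second ratio is biased upward. Summed over the 2968 barcodes with a read in all 6 libraries, edgeR called 13 tiles higher and 18 lower, each among the calls above.

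**Figure D4:**
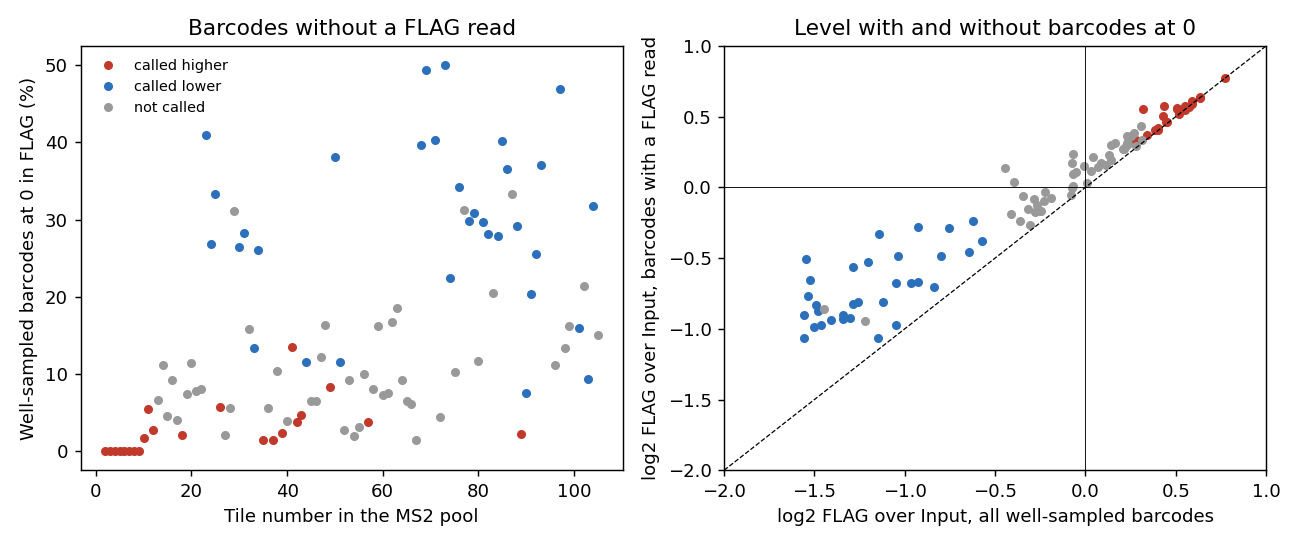
Left, the percent of well-sampled barcodes (at least 50 reads in each Input library) with no FLAG read, averaged over 3 FLAG libraries, against tile number. Right, the mean log2 ratio of FLAG to Input over well-sampled barcodes with a FLAG read against that over all of them, with a dashed line of equality; 100 tiles with at least 10 such barcodes are shown. Lower tiles lie high on the left and, on the right, above the line but below 0.

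Barcodes of a typical tile varied more among themselves than tile means did, and those of tiles 2 to 9 varied less. In the 2494 barcodes with at least 50 reads in all 6 libraries, the log2 ratio of FLAG to Input had a median SD within a tile of 1.26, 1.23 and 1.11 in replicates 1, 2 and 3, where the SD between tile means was 0.44, 0.62 and 0.82. In tiles 2 to 9 the SD within a tile was 0.40, 0.42 and 0.29. The deviation of a barcode from its tile mean was hardly shared between replicates, with Pearson r of 0.01, 0.01 and 0.00 for the 3 pairs. Tile values were shared: the log2 ratio had an r of 0.72 between replicates 1 and 2, 0.70 between 1 and 3 and 0.87 between 2 and 3 across 104 tiles. These correlations are descriptions over barcodes and tiles of the same libraries. In the test of single barcodes, 25 of 5030 passed as higher and 1 as lower.

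FLAG libraries varied more among themselves than Input libraries. The SD of log2 CPM over 3 libraries had a median of 0.09 in Input and 0.27 in FLAG, and it was larger in FLAG in 86 of 104 tiles. It was 0.45 in FLAG for the tiles from 68 on and 0.06 for tiles 2 to 9. In the summed levels of most called tiles FLAG replicate 1 departed least from Input. It had the highest FLAG level in 30 of the 33 lower tiles and the lowest in 16 of the 22 higher ones. Tiles 2 to 9 as a group did not have this order, with median log2 ratios of 0.58, 0.63 and 0.53 in replicates 1, 2 and 3. By barcodes at 0 the order differed. FLAG replicate 3 was the nearest to Input, with 11.6% against 22.0% and 25.4% in replicates 1 and 2. Without FLAG replicate 1 edgeR called 32 tiles higher and 41 lower, and all 55 calls were among them.

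Precipitation through HA, the other tag of the same fusion, was set beside FLAG without Input. edgeR called 0 of 104 tiles between FLAG and HA (0%), with 1 tile at an unadjusted p under 0.05, and by DESeq2 the same counts were 0 and 1. The edgeR tile was ms2-4x:13, with FLAG lower by 0.35 on the log2 scale (95% interval -0.67 to -0.02). The intervals of the difference lay within -0.20 to 0.16 for tiles 2 to 9, and within -0.96 to 1.01 for the 33 lower tiles at the outermost bounds of any of them. Against the Input they share, ms2-4x:88 was at -1.44 through FLAG and -1.45 through HA, ms2-4x:89 at 0.58 and 0.60, and ms2-4x:50 at -1.41 and -1.01.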

How the data were processed

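The authors deposited raw read counts per tile and barcode, per the file headers and the values (whole numbers with differing column totals). Libraries were single-end amplicons of cDNA, per the labels' protocols. The program that assigned reads is not given in the sources used here. No molecular identifiers are described, so amplified copies count as reads and limits cover counting error only. Columns were matched to samples by name, with 0 left unmatched. Counts were summed over barcodes. The 9 libraries of the pool (Input, FLAG, HA) were fitted together in R 4.3.3 with edgeR 4.0.16: filterByExpr, TMM and the robust quasi-likelihood F test, adjusted over 104 tiles. SE is the absolute log2 fold change over the square root of F. The prior count for log2 CPM was 2. The percent of barcodes higher used barcodes with at least 30 reads. Alternatives used DESeq2 1.42.0 and limma 3.58.1, and permutation tests scipy 1.17.1. The code of the fit was run on simulated data with balanced gains and losses and the same spread in all groups. The libraries here differ from that, so the run checked the code and not the scaling or the shared spread. Since the labels name no separate cultures, the p-values reflect variation among the 3 libraries of a group, possibly technical in origin.

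Tiles were named by rule: the 10 highest and 10 lowest calls whose libraries do not overlap, the 5 of most and 3 of fewest Input reads, the nearest on each side of the threshold, untested tiles, calls against both neighbours, the extreme windows and the smallest p of FLAG minus HA. Tiles 9, 11, 12, 24, 33, 39, 72, 74, 90 and 103, the barcode sets by Input reads and the ratios of consecutive tiles were chosen after their values were seen. The comparison, tile blocks and lists were chosen with earlier results of these data known.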

Additional observations from a re-analysis of the deposited data

How the results depend on the processing

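In the refits on tiles, none was called against its direction above. The 22 higher tiles became 8 with library size only, 8 with the median over barcodes (limma), 0 with a log2 fold change of at least 1 and 13 with barcodes that have a read in all 6 libraries. The 33 lower tiles became 8 with the median over barcodes, 20 with a log2 fold change of at least 1 and 18 with barcodes read in all 6 libraries. With the median over barcodes the values of all 33 stayed below 0, from -4.61 to -0.53. Their median was -2.30, against -1.12 in the main fit, but these are unlike measures. The median over barcodes takes in barcodes with no read, with 1 added to each CPM, and the main fit uses summed counts. The sizes of the changes can thus not be compared. With 1 test per barcode, 1 barcode, not tile, passed as lower. Without the 8 tiles of most Input reads (2 to 9), 27 were higher and 29 lower. Leaving out 1 library gave 13 to 32 higher and 25 to 41 lower. The 2 restrictions to barcodes with reads were chosen after seeing the data. Of 495 fold changes of named tiles under alternatives, 434 kept direction and side of the threshold, 45 lost and 9 gained a call, and 7 changed sign. These 7 were of uncalled tiles: ms2-4x:13 became -0.15 with library size only and ran from -0.079 (without FLAG replicate 3) to 0.20 when 1 library was left out, and ms2-4x:70 became 0.15 without the 8 tiles of most Input reads and 0.087 with the median over barcodes, and ran from -0.26 to 0.16 when 1 library was left out (above 0 without FLAG replicate 1 and Input replicates 1 and 3). The cause was not tested. Deviations of FLAG and Input libraries of 1 number had correlations of -0.13, -0.05 and -0.04, so the numbers were not taken as pairs. In the fit with replicate block, 21 tiles were higher and 35 lower. No FLAG library correlated best with the Input library of its own number. The ratios by replicate above still set libraries of the same number side by side, as a description.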
